A study of Mus musculus with 2 samples.

Results

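The Ly6 genes encode small cell-surface proteins, and 7 of them were followed here through the cell types of mouse skin: Ly6a, Ly6c1, Ly6c2, Ly6d, Ly6e, Ly6g and Ly6g6c. They are 7 of the 32285 genes of a droplet single-cell RNA count matrix, and were taken by name. The tissue was skin of C57BL/6 mice aged 8 weeks, dissociated with Liberase and DNAseII; the number of mice is not given in the sources used here. In one arm neutrophils had been removed at steady state by the antibody 1A8 against Ly6G on 2 consecutive days, and the other arm was the control. Cells of both arms carried hashtag antibodies and were pooled into 1 RNA library. The hashtag counts were not used here, no barcode could be given to an arm, and every value describes the pool.

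Ly6 proteins share a compact fold held together by disulfide bonds, the LU domain, and most are tethered to the outer membrane by a glycosylphosphatidylinositol (GPI) anchor. Several are the antigens by which immunologists name cells: Ly6a is Sca-1, a marker of stem and progenitor cells, Ly6c1 and Ly6c2 together carry the Ly6C antigen, and Ly6g is the neutrophil antigen that 1A8 binds. Ly6a, Ly6c and Ly6e are known in the mouse as genes that interferons raise, and Ly6d is known in stratified epithelium and early lymphocytes.

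In the GENCODE annotation of mm10, 6 of the 7 genes lie within 397.1 kb of chromosome 15, in the order Ly6d, Ly6e, Ly6a, Ly6c1, Ly6c2 and Ly6g. Ly6c1 (chr15:75044018-75048830) and Ly6c2 (chr15:75108158-75111970) are 59.3 kb apart on the minus strand, and Ly6g (chr15:75155240-75159126) is on the plus strand. Ly6g6c is on chromosome 17 (chr17:35065388-35070050), 6.85 kb from its relative Ly6g6e. The longest coding transcripts of Ly6c1 and Ly6c2 were identical at 97.6% of 822 aligned bases. Even so, only 35 of the 411 windows of 90 bases in the last 500 bases of Ly6c1 occurred unchanged in Ly6c2. Reads from the shared windows cannot be given to one of the pair, and how such reads were counted is not given in the sources used here. No such window of the last 500 bases was shared by any other pair of members.

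The promoters of Ly6c1, Ly6c2 and Ly6g in the RefSeq table (GRCm38.p6) are shown because Ly6c1 and Ly6c2 were found in different cell classes and Ly6g is the antibody's target. Each line gives the 250 bases before the annotated start, 5′ to 3′ on the gene's strand. Capitals mark bases that the alignment pairs with a different base, or with none between its ends: Ly6c1 is set against Ly6c2, and Ly6c2 against Ly6c1, while Ly6g is set against Ly6c2. Lower case marks identical bases and also the unpaired stretches at the ends of the alignment, which are 31 bases in Ly6c1, 25 in Ly6c2 and 53 in Ly6g.
Ly6c1: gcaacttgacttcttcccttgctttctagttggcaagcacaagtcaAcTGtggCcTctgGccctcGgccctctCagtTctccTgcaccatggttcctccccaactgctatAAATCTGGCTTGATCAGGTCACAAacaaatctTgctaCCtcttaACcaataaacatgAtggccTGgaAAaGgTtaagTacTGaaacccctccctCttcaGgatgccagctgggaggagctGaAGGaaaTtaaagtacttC
Ly6c2: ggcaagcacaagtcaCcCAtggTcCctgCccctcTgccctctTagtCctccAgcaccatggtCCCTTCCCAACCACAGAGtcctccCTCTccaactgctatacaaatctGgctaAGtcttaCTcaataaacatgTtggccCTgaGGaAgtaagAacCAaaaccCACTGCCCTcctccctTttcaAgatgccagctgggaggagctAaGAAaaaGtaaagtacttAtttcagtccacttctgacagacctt
Ly6g: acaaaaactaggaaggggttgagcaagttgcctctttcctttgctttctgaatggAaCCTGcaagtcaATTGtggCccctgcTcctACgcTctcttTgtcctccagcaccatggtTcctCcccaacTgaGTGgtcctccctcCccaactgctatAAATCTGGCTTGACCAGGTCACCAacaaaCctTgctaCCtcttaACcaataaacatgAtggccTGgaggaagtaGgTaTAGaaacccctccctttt
These are chr15:75048838-75049087 (minus strand), chr15:75111972-75112221 (minus strand) and chr15:75155011-75155260 (plus strand). Of the aligned bases, 83.5% were identical between Ly6c1 and Ly6c2, and 80.6% of 170 between Ly6g and Ly6c2. Ly6g set against Ly6c1 gave 83.5% of 206. Both strands were searched for 4 letter patterns. GAGGAAG, a core that ETS factors are known to bind, occurred once in the Ly6c2 window and once in the Ly6g window, and not in the Ly6c1 window, and 10.7% of 32536 promoter windows of this length hold it. TTGCNNAA, a C/EBP pattern, occurred once in Ly6g and not in Ly6c1 or Ly6c2, against 9.57% of all windows. The interferon-linked pattern TTCNNNGAA (7.04% of all windows) and the interferon-stimulated response pattern, GAAA and GAAA with 2 bases between (2.98%), occurred in none of the 3. A match describes the letters only.

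The matrix held 8367 barcodes with a median of 9426 unique molecular identifiers (UMIs), and 8127 were kept with at least 200 genes and at most 20% mitochondrial UMIs. A barcode entered a cell class when at least 3 markers and 50% of that class's list passed, and no Ly6 gene was among the markers. This gave 6167 gated barcodes, while 78 barcodes with markers of unrelated classes were set aside and 1882 stayed ungated. In 15 classes there were at least 20 barcodes: 3528 fibroblasts, 899 basal and 289 suprabasal keratinocytes, 67 lower hair follicle keratinocytes, 607 macrophages, 206 monocytes, 114 dendritic cells, 20 neutrophils, 75 group 2 innate lymphoid cells, 64 NK cells, 40 alpha-beta and 22 gamma-delta T cells, 23 mast cells, 102 skeletal muscle and 20 pericyte or smooth muscle barcodes. Median depth differed between them, at 11564.5 UMIs in fibroblasts, 12470 in suprabasal keratinocytes, 7546.5 in monocytes, 4920 in NK cells, 2487.5 in neutrophils and 1879 in mast cells. Levels are given as CPM, the UMIs of a gene summed over a class and scaled to the total UMIs of that class, with exact Poisson intervals at 95%. A fold sets a class against all other gated barcodes, with its exact conditional 95% interval. With 1 library these intervals cover counting error only, and no p-value was computed.

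The measured members were high in pairs of genes that shared classes, and no class was above 2-fold for more than 2 of them. Of the 90 pairs of 6 measured members and 15 classes, 11 were above 2-fold, against 21.6% of all gene and class pairs with at least 50 UMIs. In the other direction 70 of the 90 pairs lay below 2-fold, against 28.9% of all pairs. These pooled shares are not a like comparison for the members. In the smallest classes, a gene with 0 UMIs can come out above 2-fold through the small count added in the ratios. None of the 11 member pairs above was at 0 UMIs. The whole interval lay past 2-fold in 10 of the 11 pairs above and, with genes at 0 UMIs set to 3 counts, in 64 of the 70 below. Among the 15 classes, Ly6a and Ly6c1 were highest in fibroblasts, Ly6d and Ly6g6c in suprabasal keratinocytes, and Ly6c2 and Ly6e in monocytes. Ly6g had 2 UMIs in the whole matrix and was not among the measured members.

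**Figure D1:**
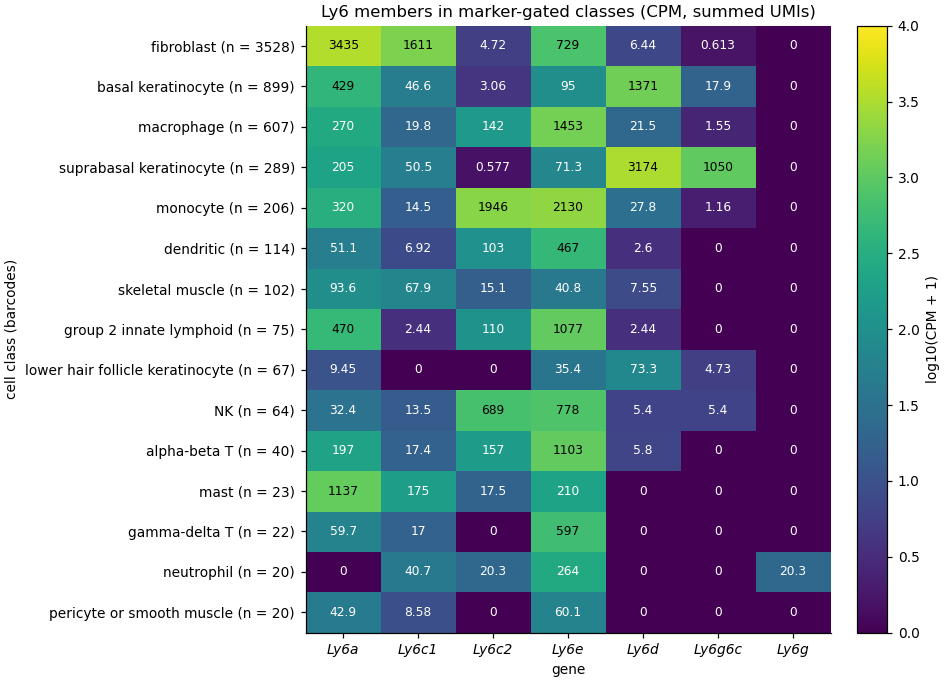
Summed level of each member (columns) in each marker-gated class (rows, number of barcodes in brackets); the number in a cell is CPM and the colour is log10(CPM + 1). Ly6a and Ly6c1 peak in fibroblasts at 3435 and 1611 CPM, Ly6c2 and Ly6e in monocytes at 1946 and 2130 CPM, and Ly6d and Ly6g6c in suprabasal keratinocytes at 3174 and 1050 CPM.

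Ly6g, the target of the depleting antibody, was almost absent from the RNA. One of its 2 UMIs was in a neutrophil-gated barcode of 3429 UMIs in which 5 of 5 neutrophil markers passed, with 86 UMIs of S100a9, 32 of S100a8 and 11 of Retnlg. The other was in an ungated barcode of 47307 UMIs, which held 126 UMIs of S100a9, 418 of the macrophage gene Retnla, 332 of Cd74 and 113 of the fibroblast gene Dcn, and in which 0 of 5 neutrophil markers passed. Transcripts of several cell types were thus together in the barcode with the second UMI. Among the 20 neutrophil-gated barcodes 1 had Ly6g, or 5% (exact Clopper-Pearson interval 0.127% to 24.9%), at a median of 2487.5 UMIs, and among the 8107 other kept barcodes 1 had it, or 0.0123%.

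The neutrophil identity of these 20 barcodes did not rest on Ly6g. The calprotectin subunits S100a8 (29694 CPM) and S100a9 (41307 CPM) and the receptor for the growth factor G-CSF, Csf3r (2278 CPM), had UMIs in 20 of 20, though these genes chose the barcodes. Retnlg (6183 CPM) had UMIs in 19 and the chemokine receptor Cxcr2 (773 CPM) in 14. Ly6a had 0 UMIs in the 49169 of this class, which allows up to 3 counts or 61.0 CPM. In neutrophils none of the 6 measured members was above 2-fold (40.0% of all genes were) and 6 were below it by the point value (23.7% of all genes). The whole interval lay below 2-fold for 3 of the 6 (Ly6a, Ly6c1 and Ly6d). For Ly6c2 (1 UMI), Ly6e (13 UMIs) and Ly6g6c (0 UMIs) it did not. The shares of 40.0% and 23.7% over all genes are not a like comparison for the members. In a class this small, the 0.5 UMIs added to each count can put a gene with 0 UMIs above 2-fold. Of 15 other LU-domain genes measured, 11 had 0 UMIs in neutrophils and 11 were above 2-fold. Whether these neutrophils came from the control or the depleted arm cannot be told.

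Fibroblasts carried the bulk of Ly6a and Ly6c1. Ly6a reached 3435 CPM (3418 to 3453) in fibroblasts, against 304 CPM in all other gated barcodes, a fold of 11.3 (11.1 to 11.6). Ly6c1 reached 1611 CPM (1599 to 1623) in fibroblasts, against 35.8 CPM in the others, a fold of 45.0 (42.2 to 48.2). In fibroblasts these 2 of the 6 measured members were above 2-fold, where 18.8% of all genes were, and 3 were below it, where 24.5% of all genes were.

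Detection was close to complete in that class. A Ly6a UMI was found in 98.8% of fibroblast barcodes and a Ly6c1 UMI in 96.7%, and 3402 of 3528 had both. The 32 fibroblasts with neither had a median of 2779.5 UMIs, against 11564.5 in the class. After each barcode was thinned to 1000 UMIs, 89.5% of fibroblasts still had Ly6a and 71.7% had Ly6c1. For contrast, in lower hair follicle keratinocytes (median 5738 UMIs) Ly6a was found in 5.97% of barcodes and in 1.49% after thinning, and Ly6c1 in none of 67. Single fibroblasts ran from 1224 CPM of Ly6a at the 10th percentile through a median of 3004 to 5995 CPM at the 90th.

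The members parted outside fibroblasts. Ly6a was 1137 CPM in mast cells, 470 (406 to 542) in group 2 innate lymphoid cells, 429 (416 to 442) in basal keratinocytes, 320 (294 to 348) in monocytes and 270 (257 to 284) in macrophages. Group 2 innate lymphoid cells and basal keratinocytes did not differ beyond counting error (fold 1.10, 0.944 to 1.27), while basal keratinocytes were above monocytes (fold 1.34, 1.23 to 1.47) and monocytes above macrophages (fold 1.18, 1.07 to 1.31). These are levels far below the fibroblast one but spread over unrelated lineages. Within the lymphoid classes, group 2 innate lymphoid cells had 14.5-fold (8.12 to 28.6) the Ly6a of NK cells (32.4 CPM), 7.89-fold (3.75 to 19.9) that of gamma-delta T cells (59.7 CPM) and 2.38-fold (1.65 to 3.54) that of alpha-beta T cells (197 CPM).

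Free or attached fibroblast RNA can put fibroblast transcripts into other barcodes, so each class was set against the level that its own fibroblast marker UMIs would bring along at the ratio seen in fibroblasts. For Ly6a that level was 39.0 CPM in basal keratinocytes, 34.0 in macrophages, 23.0 in monocytes and 10.7 in group 2 innate lymphoid cells, and the measured interval lay above it in 10 of 14 classes. Skeletal muscle, at 93.6 CPM measured and 123 CPM by that ratio, lay below. For Ly6c1 the measured interval lay above the level in 4 of 14 classes. These were basal keratinocytes (46.6 CPM measured, 18.3 by the ratio), suprabasal keratinocytes (50.5 and 29.8), macrophages (19.8 and 15.9) and neutrophils. Neutrophil barcodes had 0 CPM of fibroblast markers, so any Ly6c1 UMI would lie above their level, and they had 2 UMIs. Without the 41 non-fibroblast barcodes with 10 or more Dcn UMIs, the log2 fold of Ly6c1 in fibroblasts was 6.07 instead of 5.49. The class levels were not set against the ratio again without these barcodes, and the intervals do not cover UMIs heaped in a few barcodes. In mast cells 1 barcode with 33 Dcn UMIs held 20 of the 65 Ly6a UMIs and 8 of the 10 Ly6c1 UMIs. Without it the other 22 mast barcodes had 847 CPM (618 to 1134) of Ly6a, with a UMI in 13 of them, and 37.7 CPM of Ly6c1.

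**Figure D2:**
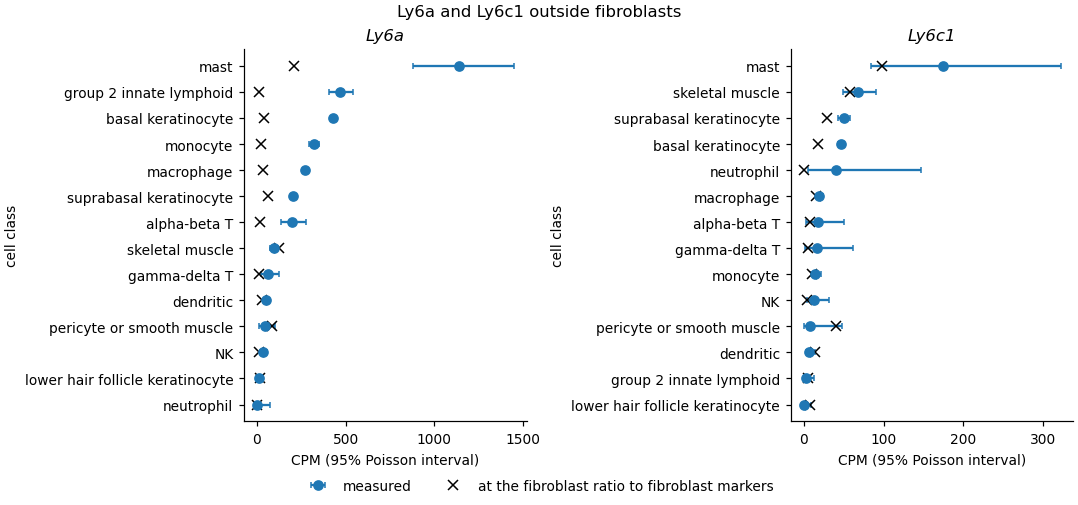
Ly6a (left) and Ly6c1 (right) in the 14 classes other than fibroblasts: points are CPM with exact 95% Poisson intervals, and crosses are the CPM that the fibroblast marker UMIs of the class would bring at the fibroblast ratio. Ly6a stands well clear of the cross in mast cells (1137 CPM), group 2 innate lymphoid cells (470 CPM) and basal keratinocytes (429 CPM), whereas Ly6c1 stays at or below 175 CPM in every class drawn.

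Blood endothelium, the classical vascular site of Ly6c1, was barely sampled. Its gate held 6 barcodes and 13832 UMIs. Ly6c1 was 2892 CPM (2066 to 3938) in them, above the 1611 CPM of fibroblasts by these counts. However, 1 barcode of 2920 UMIs held 20 of the 40 Ly6c1 UMIs, and the interval does not cover such heaping. The 6 barcodes had 4, 20, 10, 1, 3 and 2 Ly6c1 UMIs each, against a sum of 3 Dcn UMIs. They also had 20 UMIs of Ly6a, 22 of Ly6e, 0 of Ly6c2 and 9 of Gpihbp1, the endothelial LU-domain protein that carries lipoprotein lipase. Of the Ly6a and Ly6c1 UMIs together, Ly6c1 was 66.7% (53.3% to 78.3%) in these 6 barcodes, against 31.9% (31.7% to 32.1%) in fibroblasts, and 4.33% (2.82% to 6.33%) in monocytes.

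Among fibroblasts, those with Cxcl13, Vegfd and Mmp3 carried the most Ly6a, Ly6c1 and Ly6e. Ly6c2 had 11 UMIs in this subset, too few to give it a place in an order. The 504 barcodes of this subset had 4659 CPM (4608 to 4710) of Ly6a, against 3198 CPM in the other fibroblasts, a fold of 1.46 (1.44 to 1.47). Ly6c1 was 2056 CPM in the subset, against 1525 CPM in the other fibroblasts, a fold of 1.35 (1.32 to 1.37). Ly6e was 1139 CPM in the subset, against 649 CPM in the other fibroblasts, a fold of 1.75 (1.71 to 1.80). None of these passed 2-fold, and few genes did in this subset, with 0.772% of 12819 genes above and 5.85% below. Median depth was 13298 UMIs in the subset and 8165.5 to 14027 UMIs in the 6 others.

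Levels of Ly6a then followed the order Pi16 Dpp4 (2045 barcodes, 3332 CPM), Nova1 Nkain2 Nox4 (126, 3039 CPM), Cyp2f2 C1qtnf3 (60, 2605 CPM), Cilp Thbs4 Myoc (85, 2265 CPM), Crabp1 Dkk2 (22, 2199 CPM) and Rasgef1c Cd55b Adamts9 (12, 2047 CPM). The Cilp, Crabp1 and Rasgef1c subsets did not differ from the next in this order beyond counting error. Ly6c1 was 1610 CPM in the Pi16 Dpp4 subset and between 1034 and 1437 CPM in the 5 others below it. Ly6e had another order, with the Nova1 subset second at 842 CPM (1.31-fold the Pi16 Dpp4 subset, 1.24 to 1.38) and the Cyp2f2 subset (341 CPM) and the Rasgef1c subset (368 CPM) at the low end, not apart beyond counting error. All fibroblast subsets therefore held both Ly6a and Ly6c1, within a range of 2047 to 4659 CPM for Ly6a.

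**Figure D3:**
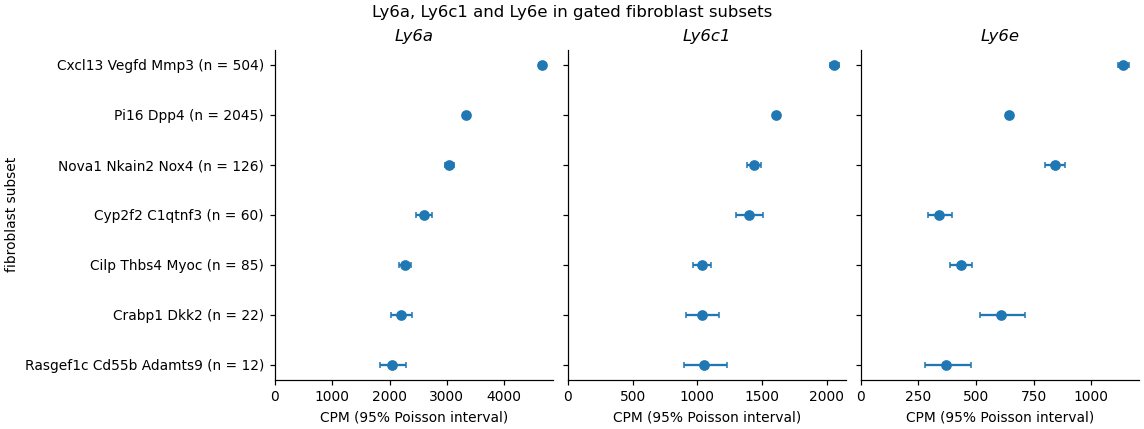
Ly6a, Ly6c1 and Ly6e (panels) in the 7 gated fibroblast subsets (rows, number of barcodes in brackets), as CPM with exact 95% Poisson intervals. The Cxcl13 Vegfd Mmp3 subset is highest for all 3, at 4659, 2056 and 1139 CPM.

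The same gradient appeared over the number of Cxcl13, Vegfd and Mmp3 markers that passed in a fibroblast. With 0, 1, 2 and 3 markers, Ly6a was 2581, 3382, 4005 and 4818 CPM. Ly6e was 455, 700, 895 and 1237 CPM over the same steps, and Ly6c1 was 1239, 1594, 1872 and 2170 CPM. Median UMIs over these steps were 9925, 11700, 12679 and 13643, and their part in the gradient was not tested. After thinning to 1000 UMIs, Ly6e was found in 34.0%, 42.7%, 53.7% and 60.7% of barcodes. Over the markers of the Pi16 Dpp4 subset, the fibroblasts taken as a progenitor-like population in the mouse dermis, Ly6a had no such steady course: 2806, 3338, 3744, 3547 and 3407 CPM with 0 to 4 markers.

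Over all 7 subsets, 1 member and subset pair was above 2-fold and 6 were below, of 5 measured members in each, where 9.18% of all gene and subset pairs were above and 7.94% below. In none of the 6 below did the whole interval lie past 2-fold, and 3 of them were at 0 UMIs, where 3 counts would not be below 2-fold. The 6 were Ly6d and Ly6c2 in the Cxcl13 subset, Ly6e (fold 0.465, 0.398 to 0.539) and Ly6d (0 UMIs) in the Cyp2f2 subset (12.3% of its genes were above and 12.7% below), Ly6d (0 UMIs) in the Cilp subset (8.53% and 10.8%) and Ly6c2 (0 UMIs) in the Crabp1 subset (16.5% and 8.36%). No member passed 2-fold in the Pi16 Dpp4 subset (1.81% of genes above, 3.88% below) or the Rasgef1c subset (20% above, 10.5% below). In the small Rasgef1c subset the 20% can include genes with 0 UMIs that pass through the 0.5 UMIs added. The pooled 9.18% then includes them too. The pair above was Ly6c2 in the Nova1 subset (26.3 CPM; 4.27% of genes were above and 3.45% below), and 95.7% of its 47 UMIs came from 1 barcode. Without that barcode Ly6c2 was 1.14 CPM there.

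Ly6c2 was highest in monocytes and next in NK cells. It reached 1946 CPM (1881 to 2013) in monocytes, against 23.1 CPM in the other gated barcodes, a fold of 84.3 (79.4 to 89.7). NK cells followed at 689 CPM (607 to 779), alpha-beta T cells at 157 (103 to 228) and macrophages at 142 (133 to 152), and the last pair did not differ beyond counting error. Fibroblasts had 4.72 CPM and suprabasal keratinocytes 0.577. Monocytes had 13.7-fold (12.7 to 14.8) the level of macrophages. In monocytes Ly6c2 and Ly6e were the 2 of 6 measured members above 2-fold (12.8% of all genes were) and 4 were below (35.5%), and in macrophages the same 2 were above (14.6%) and 4 below (30%).

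In NK cells the level came from a minority of barcodes. Of 64 NK barcodes 45 had no Ly6c2 UMI, 3 had 1 or 2, and 16 had at least 3, up to 41. Among 206 monocytes 37 had none and 144 had at least 3, and among 607 macrophages 544 had none and 49 had at least 3. A UMI was found in 29.7% of NK barcodes (median 4920 UMIs) and in 82.0% of monocytes (median 7546.5 UMIs), against 0.692% of suprabasal keratinocytes (median 12470 UMIs). In NK cells Ly6c2 was the 1 member above 2-fold (17.5% of all genes), with 4 below (31.2%). In alpha-beta T cells it was also the 1 above (28.6% of all genes, a share that includes genes with 0 UMIs there), with 4 below (22.3%). However, 55.6% of its 27 UMIs lay in 1 barcode. Without that barcode the level was 71.0 CPM, against 71.9 CPM in the other gated barcodes, and no longer above 2-fold. In dendritic cells 1 barcode held 49.6% of 119 UMIs, and in group 2 innate lymphoid cells 1 held 91.1% of 45.

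Ly6c1 and Ly6c2, whose coding transcripts differ at few bases, separated almost completely between these classes. Ly6c2 made up 99.3% (98.9% to 99.5%) of the Ly6c1 and Ly6c2 UMIs in monocytes and 98.1% (95.6% to 99.4%) in NK cells. In macrophages the share was 87.8% (85.5% to 89.8%). It was 0.292% (0.253% to 0.335%) in fibroblasts and 0 of 40 UMIs in blood endothelium. The promoters printed above are those of this pair.

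Over macrophages and monocytes as 1 pool, Ly6c2 followed the number of monocyte markers that passed (Plac8, Chil3, Ccr2, Ms4a4c and Ifitm6). It was 51.6, 77.7, 67.4, 904, 2609 and 3581 CPM with 0 to 5 markers. The step lay between 2 and 3 markers, which is also where the monocyte gate opens. Ly6a had no such course, at 270, 223, 271, 272, 528 and 157 CPM.

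Ly6e, an interferon-induced member that shapes viral entry into cells, was the most widely shared. It was 2130 CPM (2062 to 2200) in monocytes, a fold of 3.31 over the other gated barcodes (643 CPM), and 1453 CPM (1422 to 1484) in macrophages, a fold of 2.39 over the others (608 CPM). Alpha-beta T cells had 1103 CPM and group 2 innate lymphoid cells 1077, which did not differ beyond counting error, and NK cells had 778. NK cells did not differ from fibroblasts (729 CPM; fold 1.07, 0.947 to 1.20). At the low end stood basal keratinocytes (95.04 CPM), suprabasal keratinocytes (71.3 CPM), pericyte or smooth muscle (60.1 CPM), skeletal muscle (40.8 CPM) and lower hair follicle keratinocytes (35.4 CPM), the last 4 not apart from the next beyond counting error. A UMI was found in 99.5% of monocytes and 11.9% of lower hair follicle barcodes.

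Monocytes were 1.47-fold (1.41 to 1.52) above macrophages for Ly6e, and macrophages 3.11-fold (2.85 to 3.40) above dendritic cells. In dendritic cells none of the 6 members was above 2-fold (12.6% of all genes) and 4 were below (36.3%).

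**Figure D4:**
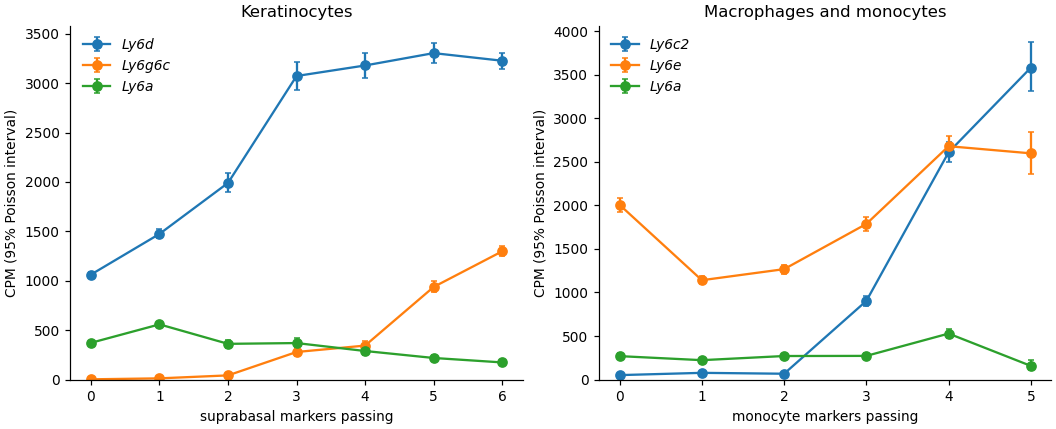
Members over the number of passing markers, as CPM with exact 95% Poisson intervals: suprabasal markers in keratinocytes (left, 0 to 6) and monocyte markers in macrophages and monocytes (right, 0 to 5). Ly6g6c runs from 2.98 to 1298 CPM over the suprabasal markers, and Ly6c2 from 51.6 to 3581 CPM over the monocyte markers.

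Ly6a and Ly6e were higher in barcodes with more interferon-induced transcripts in fibroblasts, macrophages and monocytes. In basal keratinocytes, the other class examined, Ly6a differed little. Barcodes of a class were put into 4 equal bins by the summed CPM of 25 interferon-induced genes, a step chosen after earlier values were seen. Ifitm3 gave 53.7% of that sum in fibroblasts, 48.6% in macrophages, 55.7% in monocytes and 75.1% in basal keratinocytes, so the bins were also made from the other 24 genes, and those values are given here. No Ly6 gene is in the list.

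In macrophages Ly6a was 51.5, 144, 188 and 671 CPM over the 4 bins, lowest to highest. The highest bin was 13.0-fold (10.2 to 16.99) above the lowest. A Ly6a UMI was found in 23.7%, 30.3%, 46.1% and 51.7% of macrophage barcodes over these bins. The interval does not cover UMIs heaped in a few barcodes, and their spread over barcodes was not tested. In monocytes Ly6a was 58.4, 193, 392 and 636 CPM, a fold of 10.9 (6.98 to 17.9) between the ends. Ly6a in fibroblasts was 2064, 2624, 3460 and 5082 CPM, a fold of 2.46 (2.42 to 2.50). With Ifitm3 in the sum, these Ly6a folds were 9.53 in macrophages, 4.30 in monocytes, 2.87 in fibroblasts and 1.53 (1.40 to 1.68) in basal keratinocytes. The highest macrophage bin was thus above the level of the whole monocyte class (320 CPM), and the lowest was near that of dendritic cells (51.1 CPM).

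Ly6e did likewise, with 582, 1150, 1517 and 2420 CPM in macrophages and 273, 459, 733 and 1281 CPM in fibroblasts. Between the ends of the bins the Ly6e folds were 4.16 (3.84 to 4.51) in macrophages, 4.70 (4.50 to 4.91) in fibroblasts and 2.14 (1.94 to 2.38) in monocytes. Ly6c2 in monocytes was 926, 990, 2448 and 3497 CPM, a fold of 3.78 (3.35 to 4.27), and in macrophages it had 0 UMIs in the lowest bin and 261 CPM in the highest. With Ifitm3 in the sum, Ly6c2 in macrophages was 286 CPM in the highest bin and 37.8 CPM in the lowest, a fold of 7.56. Ly6c1 followed in fibroblasts, with 1092 CPM in the lowest bin and 2248 CPM in the highest. In monocytes its level of 16.7 CPM in the lowest bin and 12.6 CPM in the highest did not differ beyond counting error (fold 0.757, 0.183 to 2.98).

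In basal keratinocytes the Ly6a difference between the ends was small, a fold of 1.15 (1.05 to 1.26), with 460 CPM in the highest bin and 399 in the lowest. The median level of the summed genes was 0, 91.1, 186 and 432 CPM over these bins, so the lower bins rest on few UMIs. Ly6e there had a fold of 2.02 (1.64 to 2.51). Ly6c1 had a fold of 2.49 (1.87 to 3.35), with 83.8 CPM in the highest bin and 33.7 in the lowest. Its UMIs went from 96 in bin 3 to 223 in bin 4, while 30.2% and 29.9% of barcodes had one. The rise thus came from more UMIs in barcodes that had one, not from more such barcodes. Whether a few barcodes held most of these UMIs was not examined, and fibroblast RNA in them was not tested. Median depth per bin lay between 9082.5 and 13149 UMIs in fibroblasts, 7070.5 and 10337 in macrophages, 6762.5 and 8066.5 in monocytes, and 8583 and 11599 in basal keratinocytes. Its part in these gradients was not tested. The control and depleted arms cannot be told apart within the bins.

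**Figure D5:**
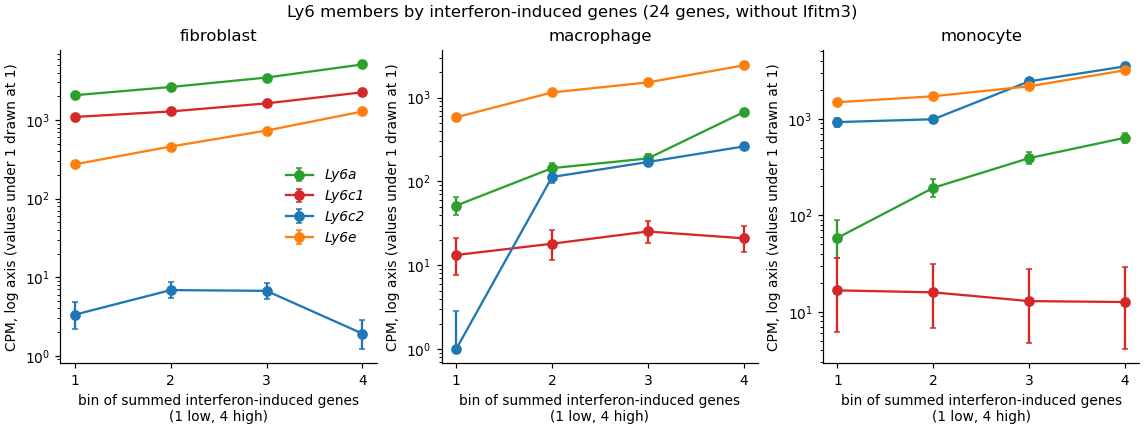
Ly6a, Ly6c1, Ly6c2 and Ly6e over 4 equal bins of the summed level of 24 interferon-induced genes, for fibroblasts, macrophages and monocytes (panels), as CPM on a log axis with exact 95% Poisson intervals; values under 1 CPM are drawn at 1. Ly6a climbs in all 3 panels, to 671 CPM in the highest bin of macrophages and 636 CPM in that of monocytes.

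The interferon-induced list was high in some classes with high Ly6e and low in others. Of its 25 measured genes, 14 were above 2-fold in monocytes and 1 below (median log2 ratio 1.06, against -0.39 over all genes), led by Rsad2, Ifit2 and Oas1a. Macrophages had 9 above and 1 below (median 0.78, against -0.21), and fibroblasts 9 above and 0 below (median 0.82, against -0.20), led by Cxcl10 at 392 CPM in fibroblasts and 42.1 CPM in the other barcodes. In basal keratinocytes 0 were above and 24 below (median -4.44, against -0.06). In the lymphoid classes with Ly6e above the other barcodes the list was low: 18 genes were below and 1 above in alpha-beta T cells (median -1.89, against 0.26; Ly6e 1.62-fold), 17 below and 0 above in group 2 innate lymphoid cells (-1.76, against -0.24; Ly6e 1.59-fold), and 16 below and 0 above in NK cells (-1.89, against -0.14; Ly6e 1.14-fold). Of all genes 22.3% were below and 28.6% above in alpha-beta T cells. Those shares were 29.8% and 15.4% in group 2 innate lymphoid cells, and 31.2% and 17.5% in NK cells. In the Cxcl13 Vegfd Mmp3 fibroblasts, which had the most Ly6a and Ly6e, the median was 0.65 against -0.13 over all genes. There 3 were above 2-fold, where 0.772% of all genes were: Cxcl9 (3.60-fold), Ifi44 (2.45-fold) and Ifit3 (2.17-fold).

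Keratinocytes had a set of members of their own. Ly6d was 3174 CPM (3115 to 3234) in suprabasal keratinocytes, a fold of 13.1 over the other gated barcodes (242 CPM), and 1371 CPM (1348 to 1394) in basal keratinocytes, a fold of 6.05 over the others (227 CPM). The suprabasal level was 2.32-fold (2.26 to 2.37) the basal one. Ly6g6c was 1050 CPM (1016 to 1084) in suprabasal keratinocytes, a fold of 164 (148 to 183) over the others (6.39 CPM), and 58.5-fold (50.3 to 68.4) the 17.9 CPM of basal keratinocytes. In suprabasal keratinocytes these 2 of 6 members were above 2-fold (10.6% of all genes) and 4 were below (36.1%), and in basal keratinocytes Ly6d alone was above (13.9%) and 5 were below (29.4%).

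Ly6a ran the other way, and basal keratinocytes (429 CPM) were 2.09-fold (1.93 to 2.27) above suprabasal ones (205 CPM). Basal keratinocytes were also above suprabasal ones for Ly6e (fold 1.33, 1.16 to 1.54). For Ly6c2 the fold was 5.30 (1.35 to 45.8), from 30 UMIs in basal and 2 in suprabasal barcodes. Of the 30, 29 lay in the highest interferon bin, where 1.79% of 224 barcodes had one. This Ly6c2 level thus rests on very few barcodes, which the interval does not cover. A UMI of Ly6d was found in 99.0% of suprabasal and 87.5% of basal barcodes, against 3.86% of fibroblasts (median 11564.5 UMIs). Ly6g6c was found in 86.9% of suprabasal and 8.68% of basal barcodes, against 0.652% of fibroblasts.

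The number of suprabasal markers that passed (Krt1, Krt10, Krtdap, Sbsn, Calm4 and Dmkn) ordered these changes. Ly6d was 1063, 1474, 1990, 3072, 3179, 3304 and 3227 CPM with 0 to 6 markers, and was level from 3 markers on. Ly6g6c was 2.98, 12.7, 42.7, 279, 344, 937 and 1298 CPM, and had no plateau. Ly6a was 372, 559, 362, 370, 289, 219 and 174 CPM, with its highest value at 1 marker. Ly6d was thus already at its full level in barcodes where Ly6g6c was at 279 CPM.

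In the lower hair follicle, Ly6d was 73.3 CPM (49.8 to 104) and Ly6a 9.45 CPM (2.58 to 24.2) in the 67 lower follicle barcodes, so that basal keratinocytes were 18.7-fold (13.2 to 27.6) and 45.4-fold (17.7 to 167) above them. In the upper follicle, whose gate held 5 barcodes and 48304 UMIs, Ly6d was 3726 CPM (3202 to 4312), with UMIs in 4 of 5 barcodes, an interval that overlaps the suprabasal one. Ly6g6c was 455 CPM (285 to 690) there, from 22 UMIs. All 6 measured members were below 2-fold in the lower follicle class (21.4% of all genes). The 6 were also below in skeletal muscle (54.4% of all genes) and in pericyte or smooth muscle (19.7%). None was above in these 3 classes, where 19.1%, 11.4% and 30.4% of all genes were. In mast cells 0 were above (41.7% of all genes) and 5 below (17.8%), of which 2 with the whole interval, in gamma-delta T cells 0 above (36.0%) and 5 below (20.9%), and in group 2 innate lymphoid cells 0 above (15.4%) and 4 below (29.8%). For mast cells, gamma-delta T cells and pericyte or smooth muscle, the shares over all genes are not a like comparison. They count as above genes with 0 UMIs that pass through the 0.5 UMIs added. Of 15 other LU-domain genes measured, 14 had 0 UMIs and 9 were above in mast cells. Those counts were 14 and 7 in gamma-delta T cells, and 12 and 10 in pericyte or smooth muscle.

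Other genes with an LU domain were also divided between these classes. Of 38 listed relatives in the matrix, 15 had at least 50 UMIs in gated barcodes. Over all genes 10.6% were above 2-fold and 36.1% below in suprabasal keratinocytes, and 13.9% and 29.4% in basal ones. In suprabasal keratinocytes 5 were above 2-fold and 8 below (median log2 ratio -1.97, or 0.01 with the 4 genes at 0 set to their bound, against -0.31 over all genes), led by Ly6g6e, the chromosome 17 neighbour of Ly6g6c, at 140 CPM and 53.7-fold (44.9 to 64.4) the other barcodes (2.61 CPM). Lypd3, a keratinocyte surface protein, was 371 CPM and 33.5-fold (30.5 to 36.8) the others. In basal keratinocytes 3 were above and 9 below (median -2.37, or -1.64 at the bound, against -0.06), led by Lypd6b (9.90-fold, 8.76 to 11.2) and Cd59a (9.20-fold, 8.05 to 10.5), a brake on complement.

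Among leukocytes, Plaur, the urokinase receptor, was 834 CPM in neutrophils, 258 in monocytes and 211 in dendritic cells. Cd177, known as a neutrophil surface protein, had 43 UMIs in monocytes (24.9 CPM). In fibroblasts 6 relatives were above 2-fold and 7 below (median -0.11, against -0.20), and those leading were at very low levels: Ly6h (95 UMIs, 2.24 CPM), Gml2 (55 UMIs) and Gml (76 UMIs). Ly6h and Gml2 had no UMI in the other gated barcodes, and Gml had 76 of its 77 gated UMIs in fibroblasts. These 3 genes thus reached the UMI minimum for measured genes only through the class in which they were above 2-fold. Their place among the 6 is therefore not independent of that minimum. Of the 29 genes that build and attach GPI anchors, 1 was above and 3 below in fibroblasts (median log2 ratio -0.29, against -0.20 over all genes). In suprabasal keratinocytes 7 were above and 2 below (median 0.51, against -0.31). Over all genes 18.8% were above and 24.5% below in fibroblasts, and 10.6% and 36.1% in suprabasal keratinocytes. Skeletal muscle had 2 above and 17 below (median -1.31, or -0.84 at the bound, against -1.18). There 11.4% of all genes were above and 54.4% below, so the 17 of 29 are near the share over all genes.

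The genes whose levels went most closely with a member over 20 units (14 classes and 6 fibroblast subsets) were found among 12082 genes by Pearson's r of log2(CPM + 1), a description of 1 library. For Ly6d they were Calm4 (r = 0.96), Dsg1a (0.95) and Sptlc3 (0.94), and for Ly6g6c Elovl4 (0.96), D7Ertd443e (0.95) and 4833423E24Rik (0.95). Ly6a went with Dcn (0.89), Lama2 (0.88) and Aida (0.87), and Ly6c1 with Dpt (0.95), Ogn (0.95) and Arhgap20 (0.95). Ly6c2 went with Nans (0.88), Napsa (0.85) and Tagap (0.85), and Ly6e with Ap3s1 (0.88), Slfn8 (0.87) and Wipf1 (0.86). Dcn, Calm4 and Napsa are also among the markers that chose the classes.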

How the data were processed

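The deposited values are raw UMI counts for 1 pooled RNA library, not normalized. The submitters' processing notes name Cell Ranger and the build mm10; version, cell calling and use of strand are not given in the sources used here. Members, gene lists and comparisons were chosen with earlier results of these data known.

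Barcodes with under 200 genes or over 20% mitochondrial UMIs were removed (240 of 8367). A marker passed in a barcode when its UMIs per 10000 reached 20% of the 95th percentile of its non-zero barcodes. A class needed 3 markers and 50% of its list, a fibroblast subset 2 markers, taking the list with the largest share. Barcodes with markers of unrelated classes (78) were left out as possible doublets. UMIs were summed per class. Genes with at least 50 UMIs in the barcodes compared were set against a limit of 2-fold; 14836 genes qualified among classes and 12819 among fibroblast subsets; log2 ratios had 0.5 UMIs added to each count. Where a class had 0 UMIs, 3 UMIs set its upper bound. In the groups with fewest UMIs, the 0.5 UMIs added can put a gene with 0 UMIs above 2-fold. Those groups were neutrophils, mast cells, gamma-delta and alpha-beta T cells, pericyte or smooth muscle and the Rasgef1c fibroblast subset. The shares over all genes there, and the pooled shares, include such genes. Named genes are the members, for each list the 3 largest log2 ratios per class among genes reaching 20 UMIs there, plus the 3 most similar patterns of each member with at least 200 UMIs. Whether a whole interval lay past 2-fold was added after seeing the data. The fold calculation was tested on simulated data whose summed counts were drawn as Poisson. That setting leaves out UMIs heaped in single barcodes, so it cannot show how the intervals hold there.

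Sequences are RefSeq promoters (4 of 7 members had one) and positions are from GENCODE M21. Python 3.11.15, NumPy 2.4.6, SciPy 1.17.1, pandas 2.3.3, Scanpy 1.11.5, leidenalg 0.10.2, igraph 0.11.9, Biopython 1.88 and matplotlib 3.10.9 were used. Alternatives were 500 genes, 10% mitochondrial UMIs, mixed barcodes kept, scrublet calls removed, 1 more marker, equal weight per barcode, free RNA subtracted (5% of UMIs, profile of the 83 barcodes with fewest UMIs) and Leiden clusters. A marker level of 10% and the removal of non-fibroblast barcodes with 10 or more Dcn UMIs were added after seeing the data.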

Additional observations from a re-analysis of the deposited data

How the results depend on the processing

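Among classes with at least 20 barcodes, the highest class of each of the 6 measured members was the same as in the report under 9 of the 10 alternatives. The exception was Leiden clustering, where 27 of 28 clusters took names of 8 classes that did not include monocytes, suprabasal keratinocytes or neutrophils. Ly6c2 and Ly6e were then highest in the macrophage clusters, and Ly6d and Ly6g6c in the basal keratinocyte clusters. With 48 member and class pairs instead of 90, 7 were above 2-fold (11 in the report) and 32 below (70 in the report), no Ly6g UMI (0) was in a neutrophil cluster (1 in the report), and 8 pairs of Ly6a, Ly6c1, Ly6c2 or Ly6e with a fibroblast subset passed 2-fold (4 in the report). That last count was 2 with the 305 scrublet calls left out. The 9 log2 folds named most kept their sign everywhere they could be computed: over the alternatives Ly6a in fibroblasts ran from 3.28 to 3.78, Ly6c1 from 4.26 to 6.07, Ly6c2 in monocytes from 5.52 to 7.13, Ly6e in monocytes from 1.501 to 1.94, Ly6d in suprabasal keratinocytes from 3.66 to 3.82 and Ly6g6c from 7.23 to 7.96. In the Cxcl13 Vegfd Mmp3 fibroblasts Ly6a ran from 0.45 to 0.81, Ly6c1 from 0.32 to 0.77 and Ly6e from 0.70 to 0.94. Why values moved was not tested. No paired analysis was possible because 1 library without assigned groups has no replicates. Classes with about 20 barcodes, such as neutrophils at 49169 UMIs in all, limit what a count of 0 can show.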
